A study of Homo sapiens with 8 samples.

Results

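ASS1, ALDOC, ALDH1L2 and UCP2 are 4 genes of intermediary metabolism, taken by name from a deposited table of 187 genes with estimated read counts for NCI-H295R cells. NCI-H295R is a human adrenocortical carcinoma cell line that makes adrenal steroids. The tested cells were kept in the same medium without the NU-I serum and without the ITS supplement (insulin, transferrin and selenium), and the control cells were kept in complete growth medium with 5% NU-I serum and the supplement. There were 4 serum-deprived and 4 control libraries, numbered 1 to 4 in each group. All libraries come from this 1 cell line. The labels give no duration of the serum deprivation and do not state separate cultures for the replicates, so the spread between them may be technical.

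ASS1, argininosuccinate synthase, joins citrulline to aspartate and sets the pace of arginine synthesis from citrulline. ALDOC, aldolase C, is the brain form of the glycolytic enzyme that splits fructose bisphosphate into trioses. ALDH1L2 is the mitochondrial 10-formyltetrahydrofolate dehydrogenase, which releases carbon dioxide from a folate-bound formyl group and makes NADPH in the mitochondrial matrix. UCP2, an uncoupling protein, is a carrier of the mitochondrial inner membrane from the same family as the metabolite carriers. In the adrenal cortex, mitochondria house the first step of steroid synthesis, which draws its electrons from NADPH.

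The 4 genes were chosen by their fold changes and counts in this same comparison. The authors had already limited the table by mean count, false discovery rate and fold change between these same groups, so the difference between the groups is given below as a description. Where a gene is said to pass or miss the threshold of the fit over the whole table, this sets its difference beside the spread of the replicates and is no independent evidence of a response. The authors' deposited table lists ASS1 at -1.60 on the log2 scale (FDR 1.70e-48). The authors' deposited table lists ALDOC at 0.69 (FDR 1.29e-05). For ALDH1L2 the authors' deposited table has 0.63 (FDR 0.0173), and for UCP2 the authors' deposited table has 0.87 (FDR 0.00922). ALDH1L2 lay nearest to the smallest rise among the tabulated genes, which is 0.59 on the log2 scale in the authors' deposited table. Genes that the table does not hold were not analysed here.

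The counts of the 187 genes added up to 262373 in the smallest and 359195 in the largest library, sums over selected genes that do not give the sequencing depth. Replicate 1 stood apart in both groups. Its Spearman correlations across genes with the other libraries of its group were 0.919 to 0.927 in serum-deprived and 0.947 to 0.950 in control cells, while the others reached 0.969 to 0.979 and 0.977 to 0.987 among themselves. Results below are therefore also given without it. Of 15 markers of the adrenal cortex 4 were in the table (HSD3B2, MRAP, INHA and DLK1), and all 4 had reads in every library, while 0 of 20 markers of fibroblasts, endothelium and leukocytes were in it. The table was limited to genes that differed between the groups, so absence from it does not show that a marker was not expressed. These counts are therefore no check of cell identity. The 4 adrenal markers fell after serum deprivation, with log2 fold changes of -1.42 for HSD3B2, -1.09 for MRAP, -0.77 for INHA and -0.55 for DLK1. Their summed scaled count, most of it DLK1, was 46820.1 to 55038 in serum-deprived and 69141.0 to 78989 in control libraries. Their part in the results below was not tested. In these bulk libraries fewer cells with a transcript and less of it per cell cannot be told apart.

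RefSeq promoter entries (GRCh38.p14) were matched for 3 of the 4 genes, ASS1, ALDOC and UCP2. The 250 bases before the annotated start nearest to the start of each gene's main GENCODE transcript are shown, because they carry the motifs by which these promoters differ. These RefSeq starts lie 1, 369 and 105 bases from the GENCODE starts of ASS1, ALDOC and UCP2. The ALDOC window lies wholly downstream of its GENCODE start (28577264), within the gene as GENCODE annotates it. The UCP2 window spans its GENCODE start (73983307). Distances below are to the RefSeq starts. Capitals mark matches, on either strand, to the motifs named next.
ASS1, chr9:130444711-130444960, plus strand: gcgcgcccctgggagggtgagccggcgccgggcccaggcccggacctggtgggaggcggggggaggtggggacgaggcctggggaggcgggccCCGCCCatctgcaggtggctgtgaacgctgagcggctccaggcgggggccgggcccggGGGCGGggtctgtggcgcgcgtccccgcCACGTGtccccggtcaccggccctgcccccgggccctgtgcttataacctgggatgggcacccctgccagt
ALDOC, chr17:28576896-28577145, minus strand: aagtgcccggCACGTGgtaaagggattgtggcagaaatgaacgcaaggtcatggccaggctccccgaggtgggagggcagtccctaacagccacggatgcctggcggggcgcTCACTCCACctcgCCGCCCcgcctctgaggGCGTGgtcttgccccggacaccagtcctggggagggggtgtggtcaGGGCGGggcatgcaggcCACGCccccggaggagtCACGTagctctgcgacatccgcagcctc
UCP2, chr11:73983203-73983452, minus strand: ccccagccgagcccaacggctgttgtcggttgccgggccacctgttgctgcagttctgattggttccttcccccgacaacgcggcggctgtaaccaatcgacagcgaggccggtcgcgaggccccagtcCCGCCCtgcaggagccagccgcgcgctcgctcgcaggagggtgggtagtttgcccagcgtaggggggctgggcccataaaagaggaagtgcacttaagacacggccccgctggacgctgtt
The motifs searched on both strands were the E-box CACGTG, the hypoxia response cores ACGTG and GCGTG, the C/EBP-ATF element core TGATGNAA, the FOXO element TGTTTAC, the sterol regulatory element TCACNCCAC, the GC box GGGCGG and the TATA box TATAAA. An E-box also holds the core ACGTG, so these matches overlap. ASS1 held an E-box whose first base lies 71 bases before the start. ALDOC held an E-box that begins 240 bases before the start, a further ACGTG and both a forward and a reverse GCGTG. Of 35116 such windows of 27305 genes, 6.34% held an E-box, 18.5% ACGTG and 32.2% GCGTG. ALDOC also held 1 match to the sterol regulatory element, TCACTCCAC, beginning 138 bases before the start. Of all windows 0.883% held this element, and of the 227 windows of 133 tabulated genes 3 did (1.32%). Among the tabulated genes named below, DMD held it as well. The cholesterol synthesis genes LSS, MVD, FDPS and MSMO1 did not hold it in their windows. In UCP2 the match was a GC box, a motif of 42.6% of all windows that ASS1 and ALDOC held as well. TGATGNAA, TGTTTAC and TATAAA (3.14%, 2.98% and 10.7% of all windows) were not among the letters of these 3 windows. A match is a run of letters and was not tested as a binding site.

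ASS1 was the one gene of the 4 that fell after serum deprivation. The gene (ENSG00000130707, chromosome 9, 130444929 to 130501274, plus strand, GRCh38) is protein coding, and its main transcript has 16 exons. Scaled counts, which are estimated counts divided by a size factor per library, were 363, 608, 489.8 and 495 in serum-deprived replicates 1 to 4, against 1230.1, 1689.9, 1694 and 1596 in control replicates 1 to 4. Every serum-deprived library lay far below every control library, and replicate 1 was the lowest of each group. The means were 489 ± 100.02 in serum-deprived and 1553 ± 220 in control cells (SD, n = 4 each), a log2 fold change of -1.67 ± 0.18 (SE, edgeR) or a 3.17-fold lower level. Among the 94 tabulated genes that were lower, only 2 had a larger fall in this fit, which ranks ASS1 as 3. Between the same-numbered libraries the ratio of scaled counts, serum-deprived over control, was 0.295, 0.360, 0.289 and 0.310 for replicates 1 to 4. The pairs were thus alike, replicate 1 included.

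ALDOC rose and was the most abundant of the 4 genes. It lies at chromosome 17, 28573115 to 28577264, on the minus strand (ENSG00000109107), and its main transcript has 9 exons. Scaled counts were 4672, 4443, 4081 and 3932 in serum-deprived replicates 1 to 4, against 2626, 2904, 2445 and 2646 in control replicates 1 to 4. The groups did not overlap and the 4 values of each group lay close together. The means were 4282 ± 337 in serum-deprived and 2655 ± 189 in control cells (SD, n = 4 each), a log2 fold change of 0.69 ± 0.11 (SE) or 1.61-fold. This put it in rank 34 among the 93 genes that were higher. The ratios within pairs were 1.78, 1.53, 1.67 and 1.49 for replicates 1 to 4.

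ALDH1L2 rose as well, at a far lower level and with a wider spread. It lies at chromosome 12, 105019784 to 105084577, on the minus strand (ENSG00000136010), and its main transcript has 23 exons. Scaled counts were 77.95, 105, 113 and 134 in serum-deprived replicates 1 to 4, against 64.4, 83.5, 71.7 and 79.0 in control replicates 1 to 4. Serum-deprived replicate 1 lay within the range of the controls and the other 3 lay above it. The means were 108 ± 23.2 in serum-deprived and 74.6 ± 8.38 in control cells (SD, n = 4 each), a log2 fold change of 0.53 ± 0.19 (SE) or 1.44-fold. The ratios within pairs were 1.21, 1.26, 1.57 and 1.70. In pairs 1 and 2 the ratios rested largely on the size factors, since the unscaled estimated counts had ratios of 1.03 and 1.02. The adjusted p-value of the edgeR fit was no longer under 0.05 without serum-deprived replicate 3 or 4 (log2 fold changes of 0.51 and 0.41) or without control replicate 1 or 3 (0.47 and 0.51).

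UCP2 had a higher mean after serum deprivation but did not pass the threshold, and its replicate 1 pair went the other way. It lies at chromosome 11, 73974667 to 73983307, on the minus strand (ENSG00000175567), and its main transcript has 8 exons. Scaled counts were 58.2, 71.1, 93.0 and 96.6 in serum-deprived replicates 1 to 4, against 67.3, 33.9, 62.0 and 52.0 in control replicates 1 to 4. Serum-deprived replicate 1 was the lowest of its group while control replicate 1 was the highest of its own. The means were 79.8 ± 18.3 in serum-deprived and 53.8 ± 14.7 in control cells (SD, n = 4 each), a log2 fold change of 0.57 ± 0.25 (SE) or 1.49-fold. The ratios within pairs were 0.865, 2.10, 1.4997 and 1.86 for replicates 1 to 4, so 3 of 4 pairs were higher and the pair of replicate 1 was lower. Control replicate 2, the lowest value of all 8, made the largest of these ratios, and without it the log2 fold change was 0.40. Without serum-deprived replicate 1 or control replicate 1 it was 0.70 in both cases, and the edgeR adjusted p-value was then under 0.05.

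**Figure D1:**
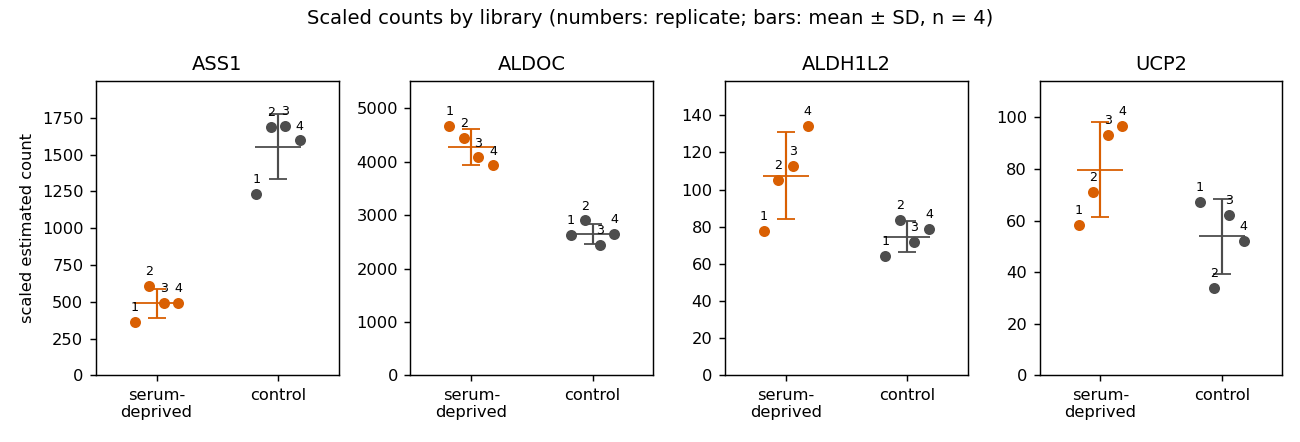
Scaled estimated counts (y axis, from 0) of ASS1, ALDOC, ALDH1L2 and UCP2 in serum-deprived and control libraries. Points are libraries with their replicate numbers, and bars are mean ± SD (n = 4). ASS1 and ALDOC separate the groups, with ASS1 at 363 to 608 in serum-deprived and 1230.1 to 1694 in control libraries, while for ALDH1L2 and UCP2 serum-deprived replicate 1 lies among the controls.

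In this fit 3 of the 4 genes passed an edgeR adjusted p of 0.05 over all 187 genes (ALDOC and ALDH1L2 higher, ASS1 lower), while 85% of the whole table passed (36.9% higher and 48.1% lower). The groups did not overlap for 2 of the 4 genes, ASS1 and ALDOC, against 66.3% of the table (26.2% higher and 40.1% lower). Both counts describe genes that had been selected for this difference. The median log2 fold change was 0.63 among the 93 tabulated genes that were higher and -0.81 among the 94 that were lower. ALDOC lay close to the first of these medians, UCP2 and ALDH1L2 lay below it, and ASS1 lay far beyond the second.

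**Figure D2:**
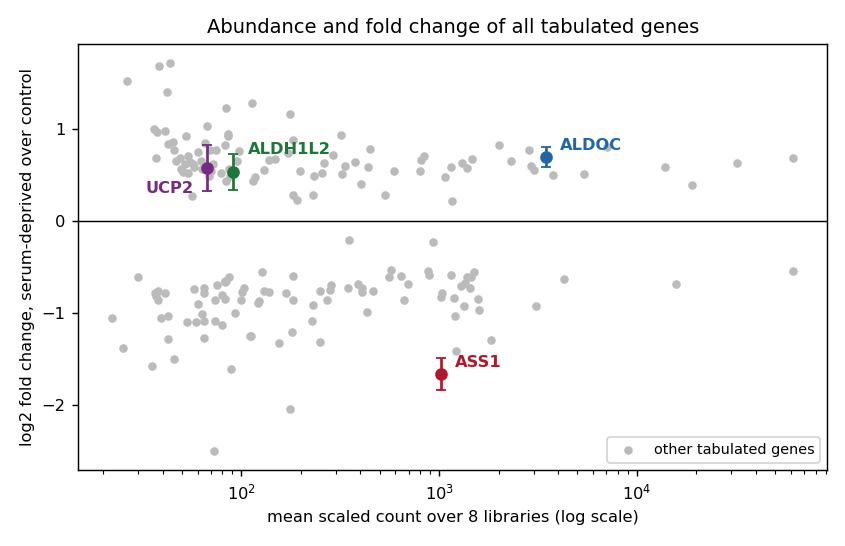
Log2 fold change, serum-deprived over control (y axis), against the mean scaled count over 8 libraries (x axis, log scale) for all tabulated genes. Coloured points are the 4 metabolic genes with SE bars from edgeR. ASS1 at -1.67 is among the larger falls, with HSD3B2 at -1.42 at a like abundance. ALDOC, ALDH1L2 and UCP2 lie within the band of genes that were higher.

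Without replicate 1 of both groups serum-deprived and control values no longer overlapped for any of the 4 genes, and the same held for 96.8% of the table, of which 100% then passed the edgeR threshold. ALDH1L2 then had 117 ± 15.1 scaled counts in serum-deprived and 78.04 ± 5.94 in control cells, and UCP2 had 86.9 ± 13.8 in serum-deprived and 49.3 ± 14.2 in control cells (SD, n = 3 each). The log2 fold changes were then -1.59 for ASS1, 0.69 for ALDOC, 0.64 for ALDH1L2 and 0.88 for UCP2. They differ by at most 0.009 from those of the authors' deposited table given above, while with all 8 libraries UCP2 stood at 0.57 and ALDH1L2 at 0.53. UCP2 is thus the gene of the 4 whose fold change differed most with replicate 1 left out, and that of ALDOC hardly differed. The table was limited by deposited values, and for these 4 genes the libraries other than replicate 1 nearly give those values. The clearer separation without replicate 1, and the larger rises of ALDH1L2 and UCP2, may therefore follow from that selection. They are no independent evidence of a response, and which libraries the selection used was not tested.

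**Figure D3:**
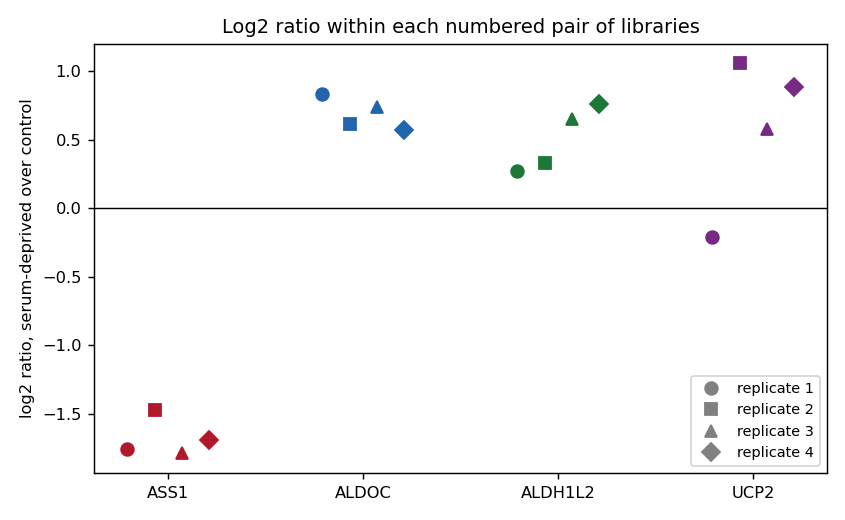
Log2 ratio of scaled counts, serum-deprived over control (y axis), within each pair of libraries with the same replicate number, for the 4 genes. Marker shapes give the replicate number. All 4 pairs of ASS1 are below 0 and all 4 of ALDOC and ALDH1L2 are above it, while UCP2 has its replicate 1 pair at -0.21 and the others between 0.58 and 1.06.

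In the pair of replicate 1, 71 of the 93 genes that the authors' deposited table lists as higher moved that way. ALDOC and ALDH1L2 were among these 71 and UCP2 was not. In that pair the log2 ratio of ALDOC was 0.83, above the median of 0.48 over the 93 genes, and that of ALDH1L2 was 0.27, below it. For ASS1 the log2 ratio of the pair was -1.76, against a median of -0.72 over the 94 genes listed as lower.

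A table without unchanged genes gives no direct scale between the groups, so ratios of 2 genes within a library, which no size factor can alter, were also taken. Per ALDOC count there were 0.0777, 0.137, 0.120 and 0.126 ASS1 counts in serum-deprived replicates 1 to 4, against 0.468, 0.582, 0.693 and 0.603 in control replicates 1 to 4. The mean log2 ratio of ASS1 to ALDOC was lower by 2.37 in serum-deprived cells (serum-deprived minus control, -2.37). Relative to ALDH1L2, ASS1 stood at 3.69 to 5.78 in serum-deprived and 19.1 to 23.6 in control libraries. Relative to UCP2, ASS1 stood at 5.12 to 8.55 in serum-deprived and 18.3 to 49.8 in control libraries. All 3 ratios with ASS1 therefore separated the groups. The other 3 ratios overlapped between the groups, with mean differences on the log2 scale of 0.18 for ALDOC over ALDH1L2, 0.10 for ALDOC over UCP2 and -0.08 for ALDH1L2 over UCP2. ASS1 thus changed unequally with the other 3, whatever the scaling. ASS1 was chosen from the genes listed as lower and the other 3 from those listed as higher, so this gap is no independent evidence. The 3 genes with higher means were not separated from each other by these ratios.

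**Figure D4:**
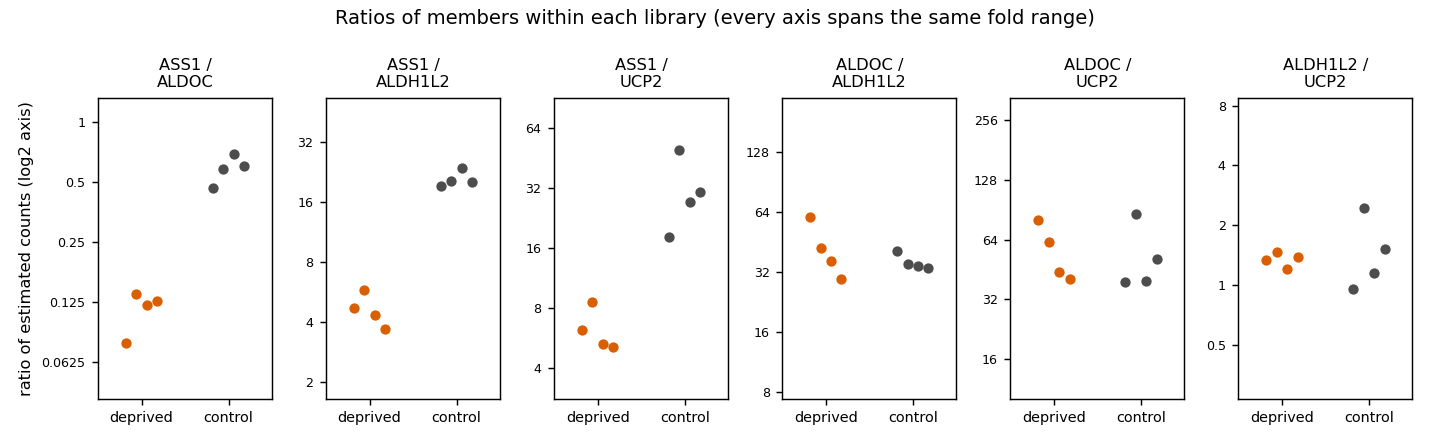
Ratio of the estimated counts of 2 genes within each library (y axis, log2 scale, the same fold range in every panel) in serum-deprived and control libraries. Points are libraries in the order of their replicate numbers. The 3 ratios with ASS1 on top are lower in all serum-deprived libraries, and the 3 ratios among ALDOC, ALDH1L2 and UCP2 overlap.

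Levels of different genes were compared per kilobase of the main GENCODE transcript (1973 bases for ASS1, 1982 for ALDOC, 7547 for ALDH1L2 and 2113 for UCP2). On this scale ALDOC led with 2161 ± 170.0 in serum-deprived and 1339.8 ± 95.3 in control cells. ASS1 came next with 248 ± 50.7 in serum-deprived and 787 ± 111 in control cells, UCP2 followed with 37.7 ± 8.65 in serum-deprived and 25.5 ± 6.96 in control cells. ALDH1L2 was last with 14.2 ± 3.08 in serum-deprived and 9.89 ± 1.11 in control cells (all in scaled counts per kilobase, mean ± SD, n = 4 each). The order was the same in both groups, and neighbours did not overlap. The closest were UCP2 and ALDH1L2, where the lowest UCP2 value was 27.5 and the highest ALDH1L2 value 17.8 in serum-deprived libraries, against 16.1 and 11.1 in control libraries. By scaled count without regard to length, ALDH1L2 ranked above UCP2. Among the 187 genes ASS1 ranked 52 by mean scaled count in serum-deprived and 29 in control cells, and ALDOC ranked 10 in serum-deprived and 12 in control cells. ALDH1L2 ranked 101 in serum-deprived and 127 in control cells, and UCP2 ranked 120 in serum-deprived and 147 in control cells.

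The genes differed in how much they varied among libraries of a group. The coefficients below include replicate 1, which stood apart in both groups. The coefficient of variation of ALDOC was 7.87% in serum-deprived and 7.11% in control cells, below the medians of the 20 tabulated genes nearest in abundance (11.6% in serum-deprived and 10.6% in control cells). For ASS1 the medians of such neighbours were 17.4% in serum-deprived and 17.8% in control cells, for ALDH1L2 22.2% in serum-deprived and 18.4% in control cells, and for UCP2 19.9% in serum-deprived and 23.9% in control cells. ASS1 varied by 20.5% in serum-deprived and 14.1% in control cells, while Poisson counting at its mean counts gives 4.65% in serum-deprived and 2.44% in control cells. For ALDH1L2 the values were 21.6% in serum-deprived and 11.2% in control cells, and counting alone gives 9.94% in serum-deprived and 11.1% in control cells. Its control libraries thus varied about as much as counting does and less than the median of their neighbours. UCP2 varied by 22.9% in serum-deprived and 27.3% in control cells, somewhat above the median of its neighbours in both groups, while counting gives 11.5% in serum-deprived and 13.2% in control cells. The estimated counts of ALDH1L2 and UCP2 were 41.2 to 121 per library. Without replicate 1 the SD of ASS1 fell from 100.02 to 66.7 in serum-deprived and from 220 to 55.3 in control cells. That of ALDH1L2 fell from 23.2 to 15.1 in serum-deprived and from 8.38 to 5.94 in control cells. For UCP2 it fell from 18.3 to 13.8 in serum-deprived and hardly in control cells (14.7 to 14.2). The SD of ALDOC fell from 337 to 262 in serum-deprived but rose from 189 to 230 in control cells.

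How far reads could be shared with other genes was checked in the GENCODE 29 transcripts. Of the 1898 distinct windows of 76 bases (the read length) in the main ASS1 transcript, 17 (0.896%) occur on the same strand in a transcript of another gene, AL353705.3 or the pseudogene ASS1P9. None of the windows of ALDOC (1907), ALDH1L2 (7472) or UCP2 (2038) does. The estimated counts of ASS1 lay within 0.0139 of a whole number in all 8 libraries, those of ALDOC within 0.157, those of ALDH1L2 within 0.410 and those of UCP2 within 0.364. Counts within 0.01 of a whole number were found in 6 libraries for ASS1, 3 for ALDOC and 0 for ALDH1L2 and UCP2. The windows of the main transcripts do not account for the fractions of ALDOC, ALDH1L2 and UCP2, and the origin of these fractions was not tested. The annotation also has ALDOC overlapping AC005726.1 on its own strand and AC005726.4 on the other, and ALDH1L2 overlapping C12orf45 on the other strand. No window of the main ALDOC transcript occurs in the transcripts of its same-strand partner. For the partners on the other strand, the library kit keeps the strand, but no source used here gives the strand setting of the counting, and where they overlap in exons their reads might not be told apart. UCP2 overlaps no annotated gene.

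Other genes of the same pathways were mostly outside the table. Of 28 genes of the urea cycle and arginine metabolism, ASS1 was the 1 tabulated member, and of 27 genes of glycolysis and glucose uptake ALDOC was the 1. UCP2 was the 1 tabulated gene on a list of 20 uncoupling proteins and inner membrane carriers. That list left out SLC25A32, the mitochondrial folate carrier given next, so UCP2 was not the only mitochondrial carrier in the table. Of 32 genes of folate and serine metabolism there were 2, ALDH1L2, which rose, and SLC25A32, which fell. SLC25A32, the mitochondrial folate carrier, had scaled counts of 391, 254, 325 and 397 in serum-deprived replicates 1 to 4, against 754, 605, 524 and 444 in control replicates 1 to 4. The groups did not overlap, and the log2 fold change was -0.77 ± 0.20 (SE). The mitochondrial folate enzyme and the folate carrier of the table thus moved in opposite directions. Of 26 genes of the amino acid response driven by ATF4, which includes ALDH1L2, there were also 2. The second, CEBPB, a bZIP transcription factor, fell to 530.0 ± 26.6 in serum-deprived cells, against 857 ± 85.4 in control cells (SD, n = 4 each). The median log2 fold change was -0.12 over the 2 tabulated folate genes and -0.08 over the 2 of the ATF4 list, against -0.22 over all 187 genes. With 2 genes each, the first 2 medians lie midway between a rise and a fall and describe neither gene. The median over all genes depends on how the groups were scaled, so these values do not compare the pathways.

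The genes whose pattern was most like that of each member were found by Pearson correlation of log2 scaled counts over the 8 libraries. All tabulated genes were selected for differing between the groups, and this likeness holds that difference. For ASS1 they were SERPINA5 (r = 0.996), a secreted serpin, IRF9 (0.98), which carries interferon signals to the nucleus, and AC087289.1 (0.98). For ALDOC they were LSS (0.98), MVD (0.97) and FDPS (0.96), all enzymes of cholesterol synthesis. For ALDH1L2 they were MSMO1 (0.96), another enzyme of that pathway, DUOXA1 (0.95), a maturation factor of a dual oxidase, and TMEM74B (0.95). UCP2 had weaker matches, NEB (0.89), DMD (0.88) and AC012651.1 (0.87). The levels of LSS, the gene most like ALDOC, averaged 8937 scaled counts in serum-deprived and 5140.5 in control cells.

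With the group means taken out, so that only the spread within groups remained, other genes came first. ASS1 was then most like RAB43 (r = 0.97), ETV4 (0.97) and NRG1 (0.95), of which RAB43 and NRG1 had positive log2 fold changes, 1.03 and 0.66, unlike ASS1. ALDOC was most like ENC1 (0.88), MATN2 (0.87) and CEBPB (0.86), all of which fell while ALDOC rose. ALDH1L2 was most like AL359955.1 (0.95), FAM238C (0.94) and TUFMP1 (0.94), and UCP2 like CCDC3 (0.89), NEB (0.84) and ID3 (0.83). NEB was the only gene found by both measures. Among the 6 pairs of members the correlation within groups ran from -0.91 for ALDOC and UCP2 to 0.68 for ASS1 and ALDH1L2. These correlations over 8 libraries share the size factors and the departure of replicate 1, and are descriptions.

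Under other scalings, tests and omissions of libraries none of the 4 genes changed direction. ASS1 and ALDOC passed an adjusted p of 0.05 in all 18 alternatives run, whereas ALDH1L2 passed in 11 of 17 and UCP2 in 7 of 17. Scalings that moved all genes up or down moved these 4 by about as much. Without scaling, for example, the log2 fold changes were -1.86 for ASS1, 0.49 for ALDOC, 0.33 for ALDH1L2 and 0.40 for UCP2, at a median shift of -0.20 over all genes.

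**Figure D5:**
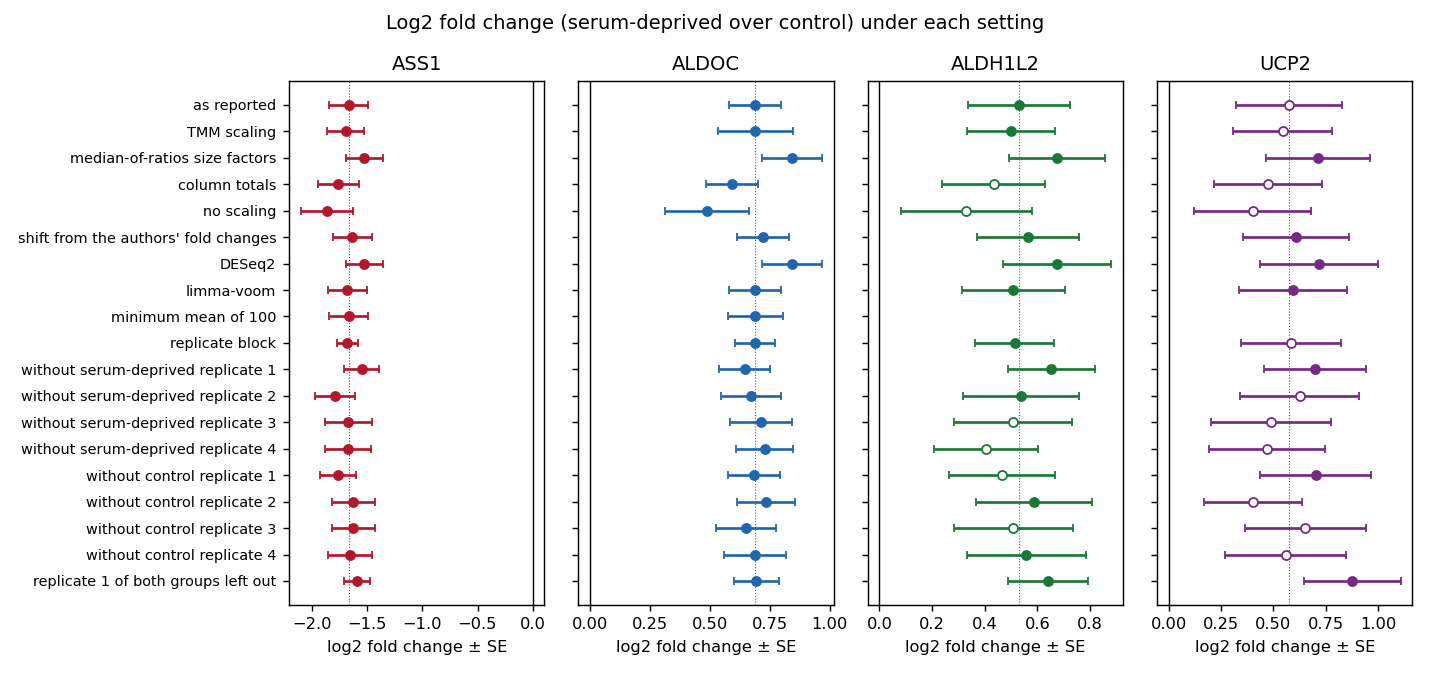
Log2 fold change ± SE, serum-deprived over control (x axis), of the 4 genes under each scaling, test and omission of libraries (rows). Filled points have an adjusted p under 0.05 over the genes tested, open points do not, and the dotted line is the value as reported. All points of ASS1 lie between -1.86 and -1.52 and those of ALDOC between 0.49 and 0.84, while ALDH1L2 and UCP2 have open points under several settings and none below 0.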

How the data were processed

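Polyadenylated RNA of 8 NCI-H295R samples was sequenced as stranded single-end libraries of 76 bases from 200 ng of total RNA with 15 cycles of amplification, per the labels' protocols. The deposited values are estimated counts per gene, not scaled to depth. The submitters' processing notes name GRCh38 and the tools cutadapt, FastQC, kallisto and edgeR, without versions. The deposited log2 fold change and FDR (an adjusted p-value) are printed as the authors' values. There were 0 columns of other samples. Columns for normal medium and starvation were matched to control and serum-deprived samples by replicate number.

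The members, gene lists, motifs and alternatives were chosen with earlier results of these data known. Size factors were medians of ratios within each group (pseudocount 0.5). Between groups, the widest empty interval of log2 ratios with at least 20 genes on each side (-0.43 to 0.0012) was centred on 0, a shift of -0.21. Rounded counts of all 187 genes were tested with edgeR 4.0.16 (R 4.3.3, glmQLFTest, two-sided, no covariate, Benjamini-Hochberg, threshold 0.05). The edgeR step was also run on simulated counts with known size factors and the same dispersion for every gene. That simulation held unchanged genes, unlike the table, and did not try the scaling between the groups. SEs come from the F statistic. The named genes were the 4 members, tabulated genes of the lists, and the 3 genes most like each member. The main transcript is the longest APPRIS principal one. Same-numbered libraries deviated together (r = 0.216, 0.377, 0.111 and 0.122 across genes for replicates 1 to 4), so numbers were taken as pairs. Differently numbered libraries gave -0.277 to 0.0819, little below the values of replicates 3 and 4. The labels state no pairing. No library duplicated another of its group (chi-square per degree of freedom at least 4.28). DESeq2 1.42.0 and limma 3.58.1 served as alternatives, with Python 3.11.15 for the rest.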

Additional observations from a re-analysis of the deposited data

How the results depend on the processing

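Across the alternatives, which omitted libraries or changed the scaling, the test or the count filter, all 4 genes kept their direction. ASS1 and ALDOC stayed past the threshold in 18 of 18 alternatives, ALDH1L2 in 11 of 17 and UCP2 in 7 of 17. A minimum mean of 100 gave no value for ALDH1L2 and UCP2, which it leaves out. Leaving out 1 library at a time gave log2 fold changes of -1.79 to -1.55 for ASS1, 0.64 to 0.74 for ALDOC, 0.41 to 0.65 for ALDH1L2 and 0.40 to 0.70 for UCP2. For ALDH1L2 the call was also lost with column totals (log2 fold change 0.43) and without scaling (0.33). UCP2 passed with median-of-ratios size factors (0.71), in DESeq2 (0.72), in limma-voom (0.60), with the shift from the authors' fold changes (0.61) and without replicate 1 of both groups (0.88). The cause was not tested. With the replicate block, the pairing of same-numbered libraries, the values were -1.68, 0.69, 0.51 and 0.58 for ASS1, ALDOC, ALDH1L2 and UCP2, and the call of none of the 4 changed. Over all tabulated genes, 69 were higher and 90 lower. Without scaling, which moved the median of all genes by -0.20, the counts were 21 and 91. Median-of-ratios size factors moved that median by 0.15 and gave 80 higher and 74 lower. A minimum mean of 100 left 107 genes, with 36 higher and 55 lower. Leaving out 1 library gave 53 to 82 higher and 78 to 91 lower, and leaving out replicate 1 of both groups gave 93 higher and 94 lower, all 187 genes. For the 4 genes that last fit nearly gives the deposited fold changes, and the table was limited by such values, so its count may follow from the selection. ALDH1L2 and UCP2 had mean estimated counts of 90.9 and 66.3, at which counting alone gives coefficients of variation of 9.94% to 13.2%; how far counting limits their fold changes was not tested.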
